A study of Mus musculus with 13 samples.

Results

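The genes described here encode 9 neutrophil proteins: Elane, Mpo, Prtn3, Camp, Ngp, Ltf, Lcn2, S100a8 and S100a9. They were taken as every probe whose annotated symbol is one of these names, which gave 12 of the 25697 probes on the array, 3 for Mpo, 2 for Ltf and 1 for each of the others. Gene expression was measured on Illumina bead arrays, which report the brightness of gene-specific probes after hybridisation of labelled RNA. The tissue was caudal vertebral bone, taken at 9 months of age from mice of a C57BL/6x129Sv/B6 hybrid background. The labels give 4 WT samples and 4 Prkaca+/- samples of bone without a named lesion, 3 samples of bone lesions from Prkar1a+/- mice and 2 of bone lesions from mice heterozygous for both genes (Prkar1a+/-Prkaca+/-), here the double heterozygotes. Prkar1a encodes a regulatory subunit and Prkaca a catalytic subunit of the cAMP-dependent protein kinase A. Every sample with a Prkar1a mutation was a lesion, so the effects of lesion and of genotype cannot be told apart. Replicates are numbered in the labels, which do not state whether they were different mice, and the p-values refer to the spread of these samples alone.

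Neutrophils fill their granules in sequence as they mature in the marrow. Azurophil granules are filled first, at the promyelocyte stage, with the serine proteases neutrophil elastase (Elane) and proteinase 3 (Prtn3) and with myeloperoxidase (Mpo), which makes hypochlorous acid. Specific granules follow with lactoferrin (Ltf), an iron-binding protein, the antimicrobial cathelicidin precursor (Camp), lipocalin 2 (Lcn2), which captures bacterial siderophores, and neutrophilic granule protein (Ngp). S100a8 and S100a9 encode the subunits of calprotectin, which fills the cytosol of maturing neutrophils and is also made by monocytes. The transcripts of the granule proteins are most abundant in the precursors that make them, while Lcn2 is also made by cells outside the neutrophil lineage.

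All 9 genes had a promoter entry in RefSeq on build GRCm38.p6. Prtn3 and Elane are neighbouring protein-coding genes on chromosome 10, and S100a8 and S100a9 are neighbours on chromosome 3. Camp, Ngp and Ltf lie on chromosome 9, Lcn2 on chromosome 2 and Mpo on chromosome 11. The 250 bases before the start are printed for the neighbouring pairs and for Camp, because the neighbours are compared with each other below and because Camp had the highest log2 difference of the 7 tested members. The regions are chr10:79879417-79879666 and chr10:79886062-79886311 on the plus strand, chr9:109849457-109849706 on the minus strand, chr3:90668821-90669070 on the plus strand and chr3:90695722-90695971 on the minus strand. Each sequence runs 5′ to 3′ along the gene's own strand, and capitals mark matches on either strand to TTNNGNAA for C/EBP factors, GAGGAAG for PU.1 and TGTGGT for RUNX factors, none of which overlap in these windows.
Prtn3: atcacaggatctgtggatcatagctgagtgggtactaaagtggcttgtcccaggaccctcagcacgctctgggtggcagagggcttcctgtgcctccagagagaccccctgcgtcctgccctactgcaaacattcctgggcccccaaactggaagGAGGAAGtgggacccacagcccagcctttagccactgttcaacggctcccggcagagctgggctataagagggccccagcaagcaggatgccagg
Elane: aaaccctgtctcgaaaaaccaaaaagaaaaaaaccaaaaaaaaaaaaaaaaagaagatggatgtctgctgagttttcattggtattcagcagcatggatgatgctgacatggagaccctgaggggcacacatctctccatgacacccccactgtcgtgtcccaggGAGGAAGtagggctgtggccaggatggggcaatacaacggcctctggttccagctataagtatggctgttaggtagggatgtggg
Camp: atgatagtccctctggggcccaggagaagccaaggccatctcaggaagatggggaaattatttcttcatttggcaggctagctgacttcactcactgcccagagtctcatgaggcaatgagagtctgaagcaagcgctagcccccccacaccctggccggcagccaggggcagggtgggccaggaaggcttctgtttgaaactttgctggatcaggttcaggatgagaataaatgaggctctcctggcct
S100a8: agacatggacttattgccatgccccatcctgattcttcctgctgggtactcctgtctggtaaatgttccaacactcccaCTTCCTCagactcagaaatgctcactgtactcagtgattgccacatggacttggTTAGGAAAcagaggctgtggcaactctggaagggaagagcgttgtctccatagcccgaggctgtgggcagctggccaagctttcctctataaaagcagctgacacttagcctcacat
S100a9: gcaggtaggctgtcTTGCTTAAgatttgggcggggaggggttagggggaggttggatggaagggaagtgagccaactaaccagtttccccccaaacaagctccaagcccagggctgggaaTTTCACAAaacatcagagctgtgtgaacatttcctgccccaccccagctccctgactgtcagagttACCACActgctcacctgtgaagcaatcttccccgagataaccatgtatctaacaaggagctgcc

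The neighbours Prtn3 and Elane both held 1 PU.1 match, and Camp held no match to any of the 3 motifs. The PU.1 letters were found in 5 of the 9 windows (Elane, Mpo, Prtn3, Lcn2 and S100a8), against 10.6% of 32851 promoter windows of the same length. The C/EBP letters were found in 5 of 9 (Ngp, Ltf, Lcn2, S100a8 and S100a9), against 36.8%, and so in none of the early genes. The RUNX letters were found in S100a9 alone, against 14% of the windows. A match describes letters and not a bound site.

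Between 13555 and 14831 probes per array were detected, meaning that their deposited detection p-value was under 0.01. Prkar1a, heterozygous in every lesion by the labels, was lower in the lesions, at 37.8% of its non-lesion level (log2 difference -1.40 ± 0.10 SE, limma adjusted p = 5.37e-07). Transcripts of osteoblasts were present on every array, with a mean log2 level of their list of 8.85 to 9.97 without lesion and 11.82 to 12.53 in lesions, and so were those of skeletal muscle: the mean log2 level of 15 muscle genes was 13.40 to 13.80 on the 8 non-lesion arrays. On the lesion arrays that mean was 13.38, 9.97 and 12.20 for Prkar1a+/- replicates 1, 2 and 3 and 12.53 and 12.58 for double heterozygote replicates 1 and 2. Xist was high in 3 of the 5 lesions and in 2 of the 8 other samples, so both sexes are present, in unequal shares.

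The 9 genes differed widely in how well they could be measured. S100a8, S100a9 and Lcn2 were detected on 13 of 13 arrays. Camp and Prtn3 were each detected on 6 arrays, all 5 lesions and Prkaca+/- replicate 4. Elane was detected on 3 arrays and Ltf on 3, and neither Mpo nor Ngp on any, so their normalised values are background readings. A probe entered the fit if it was detected on at least 2 arrays, which left 16226 probes and 7 of the 9 genes. Camp and Prtn3 passed that filter through the lesion arrays, so among dim probes a difference in that direction was a condition of being tested.

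Among the early genes, Prtn3 was higher in the lesions and Elane was not. The normalised log2 level of Prtn3 was 5.31, 5.11, 4.88 and 5.02 on the 4 WT arrays and 5.20, 5.27, 5.15 and 5.67 on the 4 Prkaca+/- arrays. It was 5.59, 6.37 and 6.10 on the Prkar1a+/- lesion arrays and 6.80 and 6.01 on the double heterozygote lesion arrays. Prkar1a+/- lesion replicate 1 fell just below Prkaca+/- replicate 4, and the other 4 lesion arrays lay above all non-lesion arrays. Prtn3 was 2.02-fold higher in lesions than in non-lesion bone, a log2 difference of 1.01 ± 0.17 (SE, 95% interval 0.65 to 1.38, 5 against 8 arrays, limma adjusted p = 0.000356). An exact two-sided permutation test of the same arrays gave p = 0.00311, where 0.00155 is the smallest value it can give. Every limma difference of lesion against non-lesion gives both lesion groups equal weight, although they hold 3 and 2 arrays. The permutation test compares the plain means of the 5 and 8 arrays, a slightly different measure.

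Elane, the neighbour of Prtn3 and also a serine protease of azurophil granules, ranged from 4.99 to 5.48 on the non-lesion arrays and from 5.07 to 5.25 on the lesion arrays. Its highest level was on WT replicate 3, and the groups overlapped throughout. The log2 difference was -0.06 ± 0.10 (95% interval -0.28 to 0.17, limma adjusted p = 0.670). Most of these levels lie at the floor of detection, since the lowest level of a detected probe was 5.16 to 5.45 per array. Mpo had 3 probes and none was detected on any array. The probe with the lowest detection p-values had a deposited intensity on 2 arrays, Prkar1a+/- lesion replicates 2 and 3, with p-values of 0.0455 and 0.0248.

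Among the late granule genes, Camp was higher in the lesions and Lcn2 and Ltf did not pass the test. The log2 level of Camp was 5.31, 4.90, 5.24 and 5.01 on the WT arrays and 5.31, 4.98, 4.79 and 6.15 on the Prkaca+/- arrays. It was 6.59, 9.30 and 6.74 on the Prkar1a+/- lesion arrays and 8.71 and 5.72 on the double heterozygote lesion arrays. Prkar1a+/- lesion replicate 2 and double heterozygote lesion replicate 1 stood above the other lesions, and double heterozygote lesion replicate 2 lay below Prkaca+/- replicate 4. Camp was 4.49-fold higher in the lesions, a log2 difference of 2.17 ± 0.52 (SE, 95% interval 1.04 to 3.30, 5 against 8 arrays, limma adjusted p = 0.00394; exact two-sided permutation p = 0.00311). The size depended on the handling of background, since the probe was detected on only 1 of 8 non-lesion arrays: the log2 difference was 1.32 without background correction and 1.57 with an offset of 50, and that of Prtn3 was 0.48 and 0.62, all past the threshold. Without double heterozygote lesion replicate 1 the difference of Camp was 1.42, and without double heterozygote lesion replicate 2 it was 2.92, both past the threshold of 0.05.

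Lcn2 spread widely among the lesions in both directions. Its log2 level was 7.23, 8.20, 7.11 and 7.70 on the WT arrays and 6.75, 7.39, 6.97 and 6.52 on the Prkaca+/- arrays. It was 9.11, 6.84 and 5.57 on the Prkar1a+/- lesion arrays and 7.06 and 8.41 on the double heterozygote lesion arrays. Both the highest and the lowest level of all 13 arrays came from Prkar1a+/- lesions, replicates 1 and 3, a span of 3.55 on the log2 scale against 1.68 among the non-lesion arrays. The log2 difference between lesion and non-lesion was 0.22 ± 0.48 (95% interval -0.81 to 1.25, limma adjusted p = 0.723), and its sign turned to -0.26 without Prkar1a+/- lesion replicate 1.

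Ltf was near the floor. Its better probe ranged from 4.72 to 5.61 on non-lesion and from 4.58 to 5.55 on lesion arrays, and its detected arrays were Prkaca+/- replicates 3 and 4 and double heterozygote lesion replicate 2. The log2 difference was -0.20 ± 0.19 (95% interval -0.61 to 0.21, limma adjusted p = 0.412). The second Ltf probe and the Ngp probe had no deposited intensity on any array.

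S100a8 and S100a9, the cytosolic genes, were detected on every array and were higher in the lesions. The log2 level of S100a9 was 7.52, 7.999, 6.84 and 6.12 on the WT arrays and 5.76, 6.49, 6.82 and 7.89 on the Prkaca+/- arrays. It was 8.47, 10.11 and 9.13 on the Prkar1a+/- lesion arrays and 7.89 and 8.54 on the double heterozygote lesion arrays. Only double heterozygote lesion replicate 1 lay within the non-lesion range. S100a9 was 3.47-fold higher in the lesions, a log2 difference of 1.79 ± 0.40 (SE, 95% interval 0.93 to 2.66, 5 against 8 arrays, limma adjusted p = 0.00237; exact two-sided permutation p = 0.00466).

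S100a8 was 9.88, 10.03, 9.02 and 8.55 on the WT arrays and 8.68, 9.06, 9.41 and 10.65 on the Prkaca+/- arrays. On the lesion arrays it was 10.21, 11.03 and 10.70 for Prkar1a+/- and 10.02 and 10.12 for the double heterozygote. All 5 lesion arrays exceeded the non-lesion median, but Prkaca+/- replicate 4 lay above 3 of them. The difference was 1.93-fold, 0.95 ± 0.33 on the log2 scale (95% interval 0.23 to 1.67, 5 against 8 arrays, limma adjusted p = 0.0294; exact two-sided permutation p = 0.0186). This call was lost in 8 of the 13 fits that left out 1 array, with adjusted p up to 0.0834.

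Counted over lesion against non-lesion, 4 of the 7 tested genes rose (Prtn3, Camp, S100a8 and S100a9) and 0 fell. Of all tested probes, 51.2% were called in either direction, 25.1% higher and 26.2% lower. Camp and Prtn3 entered the 7 through the lesion arrays. Their calls, here and in the lesion comparisons below, can therefore not be weighed against such shares. With only probes detected on all arrays, S100a8 and S100a9 were the members called. No tested member separated all lesion from all non-lesion arrays, which 14.1% of tested probes did upward. The median log2 difference of all tested probes was -0.02. Without WT replicate 1, or without Prkaca+/- replicate 4, the same 4 genes were called. S100a8 lost its call in 8 of the 13 fits of this kind, as given above. In bulk tissue, more cells of a type and more RNA per cell cannot be told apart. Markers of other cells moved between the same groups: the macrophage and monocyte list had a mean log2 level of 7.85 to 9.48 on non-lesion and 8.76 to 10.21 on lesion arrays, and 11 of 15 muscle genes fell. With the muscle mean as a covariate Camp differed by 0.95 (limma adjusted p = 0.266), S100a9 by 1.00 (adjusted p = 0.162) and S100a8 by 0.50 (adjusted p = 0.460). Prtn3 kept its call at 0.68 (adjusted p = 0.0346). No lesion array had a muscle mean within the non-lesion range, so this fit cannot fully separate muscle from lesion. With the macrophage mean, a covariate chosen after seeing the data, Camp differed by 1.67 (adjusted p = 0.143), S100a9 by 0.66 (adjusted p = 0.261) and S100a8 by 0.14 (adjusted p = 0.838), while Prtn3 kept its call at 0.73 (adjusted p = 0.0387).

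Each lesion group was then set against the bone of the matching Prkaca genotype. In Prkar1a+/- lesions against WT, the same 4 genes were higher: 4 of 7 tested, against 39.3% of probes called in either direction and 20% called higher. All 3 lesion arrays lay above all 4 WT arrays for these 4 genes, as they did for 20.6% of tested probes. As neither Prtn3 nor Camp was detected on any WT array, their change is given as a bound, at least 1.59-fold for Prtn3 (limma adjusted p = 0.00565) and at least 4.58-fold for Camp (adjusted p = 0.0143). Such a bound covers the undetected WT level only and not the spread of the arrays. S100a9 rose on the log2 scale by 2.12 ± 0.53 (adjusted p = 0.00726) and S100a8 by 1.28 ± 0.44 (adjusted p = 0.0351). Without Prkar1a+/- lesion replicate 2 only Prtn3 and S100a9 were called, and without Prkar1a+/- lesion replicate 1 Lcn2 was called lower in addition, making 5.

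In double heterozygote lesions against Prkaca+/- bone, Prtn3 was the only member called, with a log2 difference of 1.09 ± 0.25 (limma adjusted p = 0.00889), beside 28.2% of all tested probes in either direction and 14.3% higher. Camp differed by 1.91 ± 0.78 (adjusted p = 0.0860), S100a9 by 1.47 ± 0.60 (adjusted p = 0.0830), S100a8 by 0.62 ± 0.50 (adjusted p = 0.374) and Lcn2 by 0.83 ± 0.71 (adjusted p = 0.407). Camp was called as well without Prkar1a+/- lesion replicate 2, and S100a9 without Prkaca+/- replicate 4. Leaving out either double heterozygote lesion array changed the calls, and the lone remaining lesion was then assumed to vary like the other groups. Against WT, where 24.9% of probes were called and 13.1% called higher, Prtn3 was again the only call (limma adjusted p = 0.00414). The bound for Prtn3 was 2.08-fold, which again is not a minimum. Camp, at 8.71 and 5.72 on the 2 lesion arrays, missed the threshold, with a log2 difference of 2.10 ± 0.78 (SE, limma adjusted p = 0.0665). Its bound of 3.65-fold covers the undetected WT level only and not the spread of these 2 arrays, so it is not a minimum. Camp was called as well without Prkar1a+/- lesion replicate 2, and leaving out either double heterozygote lesion array again changed the calls. Leaving out Prkaca+/- replicate 4 did not. Prtn3 was thus called in lesion against non-lesion and in both matched comparisons, Camp, S100a8 and S100a9 in the first and in Prkar1a+/- lesion against WT, and Elane, Ltf and Lcn2 in none of the 3. With the muscle mean as a covariate, Prtn3 lost its call in Prkar1a+/- lesion against WT. With the macrophage mean it lost its call in both matched comparisons and in double heterozygote lesions against WT. Prtn3 did not overlap between double heterozygote lesions and Prkaca+/- bone, as 24.2% of tested probes did upward, and neither Prtn3 nor Camp overlapped with WT, as 23% did. These comparisons share arrays with those above.

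The lesion effects of both lesion groups were compared directly, and no member passed. Prkaca+/- against WT, double heterozygote against Prkar1a+/- lesions and the difference between both lesion effects each had 0 of 7 members called by limma and 0 at an unadjusted p under 0.05, beside 0% of all 16226 probes called. At an unadjusted p under 0.05 these comparisons had 263, 551 and 385 probes. The difference between lesion effects was -0.52 ± 1.05 for Camp and -0.64 ± 0.80 for S100a9. S100a8 was lower on both double heterozygote lesion arrays than on all 3 Prkar1a+/- lesion arrays, as were 8.03% of tested probes, and an exact two-sided permutation test gave p = 0.2, the smallest it can give.

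Whether early and late genes differ as classes could not be measured here. Prtn3 was the only early gene detected on more than 3 arrays, and Camp and Lcn2 the only such late granule genes, so class means consist in large part of background readings. As a description, the mean log2 level of the 4 late granule genes minus that of the 3 early genes, undetected probes included, was 0.59 ± 0.14 on the WT arrays (SD, n = 4) and 0.46 ± 0.05 on the Prkaca+/- arrays (SD, n = 4). It was 1.05, 0.89 and 0.10 on the Prkar1a+/- lesion arrays and 0.82 and 0.76 on the double heterozygote lesion arrays. Prkar1a+/- lesion replicate 3, which had the lowest Lcn2, lay below all non-lesion arrays, 3 of the other lesions lay above the non-lesion range and double heterozygote lesion replicate 2 within it. The mean moved by 0.20 from non-lesion to lesion, from 0.52 ± 0.12 (n = 8) to 0.72 ± 0.36 (n = 5), and leaving out single arrays moved this difference between 0.12 and 0.36. By single genes, 1 rose in each class, Prtn3 among the early and Camp among the late.

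Arrays taken singly showed the members ranking the lesions differently. Camp was highest on Prkar1a+/- lesion replicate 2 and next on double heterozygote lesion replicate 1, and Prtn3 held the same arrays in the opposite order. S100a8 and S100a9 were both highest on Prkar1a+/- lesion replicate 2 and next on replicate 3. Among the non-lesion arrays, Prkaca+/- replicate 4, WT replicate 2 and WT replicate 1 had the 3 highest levels of both, and Prkaca+/- replicate 4 was also the highest for Camp, Prtn3 and Ltf.

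Genes of the same pathways were counted from lists chosen with earlier results of these data known. Of the other late granule genes, 15 of 21 were tested, 7 rose and 0 fell, beside 25.1% of all tested probes called higher and 26.2% lower. Mmp9, the gelatinase of late granules that osteoclasts also make, rose by 3.35 on the log2 scale, Cyba, a subunit of the NADPH oxidase, by 1.36 and Ptx3, a soluble pattern receptor, by 1.08. Mmp8, Olfm4, Ceacam10 and Arg2 had a probe that was detected on no array, and Cd177 on 1 lesion array. Of the other early precursor genes, 9 of 12 were tested, 5 rose and 1 fell, beside the same shares. Of those that rose, Nkg7 was detected on 3 lesion and 0 non-lesion arrays and Igsf6 on 5 and 1. Both thus entered the test through the lesions. Ctsc, which activates the granule serine proteases, rose by 2.18, Cd63 by 1.71 and Gusb by 1.45, while Gstm1 fell by 1.07. Cd63 and Gusb are found in lysosomes of many cells, and Ctsg and Ms4a3, which are closer to the promyelocyte, were detected on no array.

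Of the mature neutrophil genes, 15 of 23 were tested, 12 rose and 0 fell, against 25.1% of probes called higher. Slpi, a protease inhibitor also made by other cells, rose by 5.93, Selplg, a selectin ligand, by 2.06 and Il1r2, a decoy receptor for interleukin 1, by 1.63. The defining receptors were closer to the floor: Csf3r rose by 1.02 ± 0.23 (limma adjusted p = 0.00253), while Cxcr2 was detected on 2 lesion and 0 non-lesion arrays, too near the floor for a fold. Stfa1, also among the 12, was likewise detected on 2 lesion and 0 non-lesion arrays, so it and Cxcr2 entered the test through the lesions. Retnlg was detected on 1 lesion array, and Stfa2 and Stfa3 on none.

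The factors that act on granulocytes were mixed. Of 9 tested transcription factors out of 12, 4 rose and 1 fell, beside 25.1% and 26.2% of all probes, with Spi1, which encodes PU.1, at 1.04, Ets1 at 0.91, Irf8 at 0.88 and Klf5 at -1.29. Cebpa at 0.07 and Gfi1 at 0.03 did not pass, and Cebpe and Myb were detected on no array. The list of growth factors and chemokines also holds receptors, and 7 of its 10 tested genes out of 13 rose and 0 fell. Of these, 3 of 5 tested ligands rose, the neutrophil chemokines Cxcl5 at 4.15 and Cxcl1 at 1.67 and the cytokine Il6 at 2.11, and 4 of 5 receptors rose, Il3ra, Cxcr4, Csf2ra and Il17ra. Il17ra was detected on 4 lesion arrays and 1 non-lesion array, so it entered the test through the lesions. Csf2 and Cxcl2 were detected on no array and Csf3 on 1 non-lesion array.

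Markers of other cell types moved as well, to be read beside the 25.1% of all tested probes called higher and the 26.2% called lower. Macrophage and monocyte genes rose in 5 of 9 tested, osteoclast genes in 7 of 9, osteoblast genes in 9 of 9, and mast cell and basophil genes in 6 of 8. Of those that rose, Calcr, Ocstamp, Dmp1 and Mcpt8 were detected on 0 non-lesion arrays, so they entered the test through the lesions. Slc4a1, an erythroid gene that fell, was detected on 1 lesion and 6 non-lesion arrays and entered through the latter. Erythroid genes fell in 4 of 5 tested, with Alas2 at -2.35 and Hba-a1 at -2.12, adipocyte genes in 6 of 6, and muscle genes in 11 of 15. The part of these cells in the granule gene differences was not tested beyond the covariates above. Of these, the muscle mean cannot be fully separated from lesion.

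The genes whose profile lay nearest to the class means were ranked by the root mean square difference of centred log2 levels over 13 arrays, among 11031 probes detected on all arrays. Nearest to the early mean were Rbbp5, Ddx54, Tsn, Cnot6l, Ssb and Araf, at 0.0748 to 0.0933 beside an SD of the early mean of 0.189. Nearest to the late mean were Rnf125, Laptm4b, Zswim4, Atp13a1, Fam210b and Nup155, at 0.135 to 0.165 beside an SD of 0.350. Both means are small in range because undetected probes enter them.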

How the data were processed

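Total RNA was amplified to biotinylated cRNA, per the labels' protocols. No source used here names the scanner or its software. Per the file headers, the deposited table holds a linear signal intensity and a detection p-value per probe, and intensities are empty where the p-value is above 0.1. A second deposited table holds scores in a unit not stated, a straight-line function of intensity on each array.

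Empty intensities were filled from the detection p-value by a regression of intensity on its normal quantile over p-values from 0.01 to 0.1 (r from 0.972 to 0.997). Then came normexp, an offset of 16, quantile normalisation and log2. Probes detected at p under 0.01 on at least 2 arrays were fitted with limma 3.58.1 in R 4.3.3 (4 group means, 9 residual degrees of freedom), with Benjamini-Hochberg adjustment over 16226 probes and a threshold of 0.05. A fold against a group where the probe was never detected is a bound, set by the lowest level of a detected probe on each array. It covers the undetected level only and not the spread of the arrays. Lesion against non-lesion is the mean of both lesion group means minus the mean of both non-lesion group means. Where a gene had several tested probes, the brightest on average stands for it. The number of arrays limits the precision.

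The members and lists were chosen with earlier results of these data known. All members are named, with the 3 largest rises and falls past the threshold of each pathway list, the 2 largest of each cell type list where shown, and the 6 nearest genes. Csf3r, Cxcr2, Cebpa, Gfi1, the receptors of the growth factor list and genes not detected were named after their values were seen. The same holds for listed genes named because they entered the test through lesion or non-lesion arrays only. On simulated data with 200 changed probes of 16226, lesion against non-lesion recovered 14% at a log2 change of 0.5, 81% at 1 and 96.5% at 2. In the data 51.2% of probes were called, far more than were changed in the simulation. The shares also average over probes of all spreads, so they do not give the power for single members here. Of the probes, 23978 carry 1 symbol in the platform annotation, 1719 none and 0 several. Listed genes with no named probe are not analysed here.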

Additional observations from a re-analysis of the deposited data

How the results depend on the processing

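Of the values under alternative settings, 300 stayed within their range or on their side of the threshold, 23 moved outside that range, 19 lost a call and 0 reversed one. Members called for lesion against non-lesion and for Prkar1a+/- lesion against WT, 4 and 4, became 2 and 2 (S100a8 and S100a9) with only probes detected on all arrays, where Camp and Prtn3 are not tested, and 2 and 2 with the deposited scores. Under both settings double heterozygote lesions against Prkaca+/- and against WT had 0 and 0. With the muscle covariate, whose levels did not overlap between lesion and non-lesion arrays, the first counts were 1 and 0. With the macrophage covariate, chosen after seeing the data, the 4 counts were 1, 0, 0 and 0. With a sex covariate double heterozygote lesion against Prkaca+/- had 2. The cause of these changes was not tested. Leaving out 1 array at a time gave 3 to 4 members for lesion against non-lesion, 2 to 5 for Prkar1a+/- lesion against WT, 0 to 2 for double heterozygote lesion against Prkaca+/- and 0 to 2 against WT (0 without double heterozygote lesion replicate 1), 0 to 0 for the other comparisons, and 0.12 to 0.36 for late minus early. S100a8 lost its call with no filter (adjusted p = 0.0541) and with the sex covariate (adjusted p = 0.0573). Replicate numbers recur between the groups, and 6 of 16 same-numbered pairs correlated above 0.1 (-0.24 to 0.36). The double heterozygote arrays mirror each other about their mean, so these correlations cannot settle whether the numbers pair the samples. A replicate block gave 3 members in each of the first comparisons and an S100a8 difference of 1.00 (limma adjusted p = 0.0632). A slide block was not run, as the headers give no slide. Dim probes near background limit Elane, Ltf, Mpo and Ngp.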

Other observations

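The genes nearest in profile to Camp alone and to the mean of S100a8 and S100a9 were looked up after their values were seen. Nearest to Camp were Fut4, Fgf10, Chst8, Kcnj15, Unc5b and Ifitm1, with root mean square differences of 0.572 to 0.708 over 13 arrays beside an SD of 1.46 for Camp. Fut4 encodes a fucosyltransferase that makes the Lewis x antigen of myeloid cells. Nearest to S100a8 and S100a9 were Cytip, Ptprc, Rgs10, Cd40, Pdk3 and Socs2, at 0.382 to 0.424 beside an SD of 1.00. Ptprc encodes the leukocyte antigen CD45 and Cytip a protein of blood cells. All of these nearest genes had higher plain means in the lesions, by 1.65 to 2.27 for those near Camp and 1.07 to 1.74 for the others. The shared lesion difference thus enters the ranking, and a link to any cell type was not tested.

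Other granulocyte lines were only in part visible. Among mast cell and basophil genes, Mcpt4 at 1.84 and Cpa3 at 1.67, both mast cell proteases, rose in the lesions on the log2 scale, and the list's mean level was 6.16 to 7.84 on non-lesion and 7.18 to 9.59 on lesion arrays, with Prkar1a+/- lesion replicate 3 highest. Among eosinophil genes, 1 of 8 was tested and did not pass, and Prg2 and Epx were detected on no array.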
